A study of Homo sapiens
Mus musculus with 17 samples.

Results

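The 10 human genes FOS, FOSL1, EGR1, DUSP4, DUSP5, DUSP6, SPRY2, SPRY4, PHLDA1 and ETV5 are immediate early genes and transcriptional outputs of the ERK kinase cascade, measured here in tumour cells. They were chosen by name, and all 10 were found among the 23368 human genes of the deposited table. Genes were tested where their normalized counts averaged 10 or more across all 17 libraries; 14533 genes reached that level, among them all 10. The libraries are bulk RNA of xenografts grown from VM-CUB-1, an established line of human bladder cancer, in Hsd:Athymic Nude-Foxn1nu mice, which lack mature T cells. Tumours received vehicle (0.5% methylcellulose with 0.1% Tween80, n = 4), alpelisib alone at 25 mg/kg (n = 4), nintedanib alone at 40 mg/kg (n = 5) or both drugs at these doses (the combination, n = 4), in each case over 7 days. Alpelisib inhibits the alpha isoform of PI3K, and nintedanib inhibits the VEGF, FGF and PDGF receptors. All groups come from this 1 line, described by the submitters as nintedanib-resistant. The sample titles call 3 nintedanib tumours responders and 2 non-responders, whereas the description gives these numbers the other way round; the titles were followed. The age and sex of the mice, and whether each library came from its own tumour and mouse, are not stated in the labels used. Libraries are also called tumours here. The p-values therefore refer to the spread among these libraries, which may be technical.

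Growth factor receptors activate RAS, which activates the kinases RAF, MEK and ERK in turn. ERK then switches on immediate early genes such as FOS and EGR1 within minutes, and sustained activity raises FOSL1 and ETV5. The same signal induces its own brakes: the DUSP phosphatases act on ERK and related kinases, and the Sprouty proteins act upstream, near the receptor and RAS. In urothelial and other epithelial cancers these RNAs are widely used as a readout of ERK signalling, and the question put to them here is how that readout stood under a PI3K inhibitor, a receptor inhibitor and both.

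Human reads per library ranged from 7429753 to 25654879, lowest in Vehicle 3. Vehicle 3 was also the highest library for 24.0% of all tested genes and the lowest for 27.3%. Any other library was the highest for at most 10.5% (Combination 4) and the lowest for at most 8.98% (nintedanib responder 1). Epithelial markers were abundant in all 17 libraries, with KRT5 at 42539 to 164041 and EPCAM at 760.1 to 2814 normalized counts, both in the human table. Of the host cell markers in that table, CDH5 (endothelium) was at 0 in 14 libraries and PTPRC (leukocytes) reached at most 11.9, but COL1A1 had 1204 to 8165, CD68 226 to 1287, COL3A1 107 to 935 and ACTA2 121 to 479.9. Whether those reads came from tumour or host was not tested. Normalized counts are reads divided by the authors' factor for each library. The share of mouse reads on Rn45s and Lars2, which carry ribosomal RNA reads, was 72.9% in Vehicle 3 and 60.1% in Combination 4, and 1.73% to 44.1% in the other 15.

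None of the 10 genes passed in any of the 7 contrasts tested (limma, adjusted p under 0.05 over the 14533 genes). After alpelisib 8 of the 10 had a positive log2 fold change, with a median of 0.35 against 0.025 for all tested genes, of which 52% were positive. After nintedanib 6 were positive (median 0.15, all genes -0.0017), and after the combination 4 were positive (median -0.09, all genes -0.032). None of these medians was steady when 1 library was left out. The alpelisib median ran from 0.10 to 0.49, lowest without Vehicle 2 and highest without Vehicle 3, with 6 to 8 genes positive. The nintedanib median ran from -0.21 to 0.28, lowest without nintedanib responder 1, with 4 to 7 positive, and was also negative without Vehicle 2 (-0.0097). The combination median ran from -0.24 to 0.023, lowest without Vehicle 2 and highest without Vehicle 3, with 3 to 5 positive, and was 0.21 without Vehicle 3 and Combination 4. These 3 comparisons share their vehicle libraries. Fold changes are on the scale of log2(normalized count + 1), which understates changes of low genes, and ± after a fold change is the standard error.

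**Figure D1:**
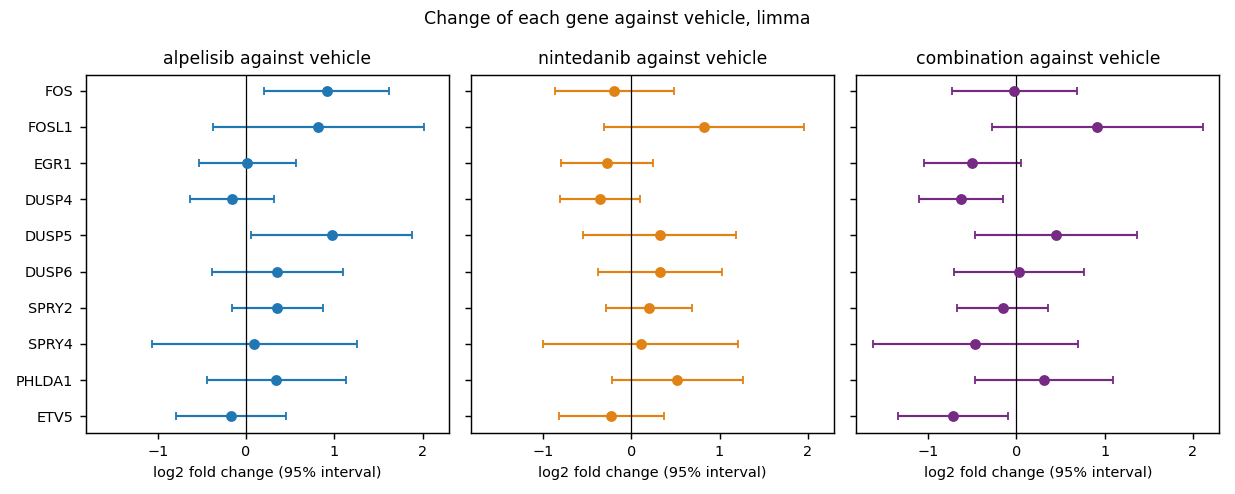
Log2 fold change of each gene against vehicle (x axis, dot) with its 95% interval (line), for alpelisib, nintedanib and the combination. Most intervals cross 0; those of FOS and DUSP5 after alpelisib lie above it, those of DUSP4 and ETV5 after the combination lie below it, and none of the changes passed over all genes.

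Few genes of the whole table passed the same test. Over all genes 0% passed after alpelisib, 0% after nintedanib and 0.358% after the combination. At an unadjusted p under 0.05, 2 of the 10 genes were higher after alpelisib (FOS and DUSP5), where 18.6% of all genes reached that level. None did after nintedanib (all genes 7.12%), and 2 were lower after the combination (DUSP4 and ETV5, all genes 18.1%). After alpelisib and after the combination, the share of the 10 genes was close to that of all genes. With 1 library left out, the alpelisib count ran from 0 to 3 genes, with 0 without Vehicle 2, the nintedanib count from 0 to 2 and the combination count from 1 to 3. For alpelisib edgeR and the fit with the replicate number as a block gave 1 each. Among the 10 genes edgeR, voom and DESeq2 on the recovered reads also called 0 in each of the 7 contrasts, although DESeq2 gave only 1 of the 10 an adjusted p after nintedanib.

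FOS encodes a subunit of the AP-1 transcription factor and is a classic first responder to ERK. It stood at 617, 321, 925 and 697 normalized counts in Vehicle 1 to 4 and at 1284, 1159.8, 858 and 1262 in Alpelisib 1 to 4. Of the alpelisib tumours 3 lay above every vehicle tumour, and Alpelisib 3 lay below Vehicle 3. The mean went from 639.9 ± 249 (SD, n = 4) to 1141 ± 196 (SD, n = 4), a log2 fold change of 0.91 ± 0.34 with a 95% interval of 0.20 to 1.62 (limma adjusted p = 0.222). Leaving out 1 library at a time gave 0.61 to 1.12. In bulk RNA, more cells with FOS RNA and more FOS RNA per cell cannot be told apart. The 3 responders to nintedanib had 1294, 492 and 412 and the 2 non-responders 328 and 456, so that 1 responder stood far above the other 4. Combination tumours had 519, 835, 532 and 515, all inside the vehicle range. The changes were -0.19 ± 0.32 after nintedanib (adjusted p = 0.816) and -0.026 ± 0.34 after the combination (adjusted p = 0.974). The nintedanib value turned to 0.018 without Vehicle 3. The combination value turned positive without Vehicle 3 (0.18) and also without Vehicle 4 or Combination 1, 3 or 4.

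EGR1, a zinc finger factor induced through serum response elements, showed little difference between alpelisib and vehicle. Vehicle tumours had 2906, 2495, 4634 and 2759 and alpelisib tumours 4517, 2985, 2108 and 3358, and the ranges overlap. The change after alpelisib was 0.01 ± 0.26 with an interval of -0.54 to 0.56, and its sign flipped under TMM scaling (-0.022). Combination tumours had 2379.7, 2677, 2119 and 1719. Of these 3 lay below every vehicle tumour and Combination 2 lay above Vehicle 2. The change was -0.50 ± 0.26 (interval -1.05 to 0.051, adjusted p = 0.322). Nintedanib tumours spanned 1505 to 4068 (change -0.27 ± 0.25, adjusted p = 0.671).

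FOSL1 encodes FRA-1, the AP-1 subunit that accumulates under sustained ERK activity. It was the most variable of the 10 genes, from 88.3 in Vehicle 2 to 1435 in nintedanib responder 1, a 16.3-fold range. Vehicle tumours had 183, 88.3, 431 and 208, alpelisib tumours 710.4, 223, 289 and 313 and combination tumours 404, 462, 285 and 352. Nintedanib responders had 1435, 441 and 148 and non-responders 134 and 399.8. Vehicle 3 alone reached into the combination range from the vehicle group. The 3 changes against vehicle were alike in size but not separable from 0: 0.82 ± 0.57 after alpelisib, 0.83 ± 0.54 after nintedanib and 0.92 ± 0.57 after the combination (adjusted p = 0.408, 0.619 and 0.404). Leaving out 1 library at a time, the alpelisib value ran from 0.44 to 1.2 and the combination value from 0.54 to 1.30, both lowest without Vehicle 2 and highest without Vehicle 3. The nintedanib value ran from 0.32 to 1.21, lowest without nintedanib responder 1.

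**Figure D2:**
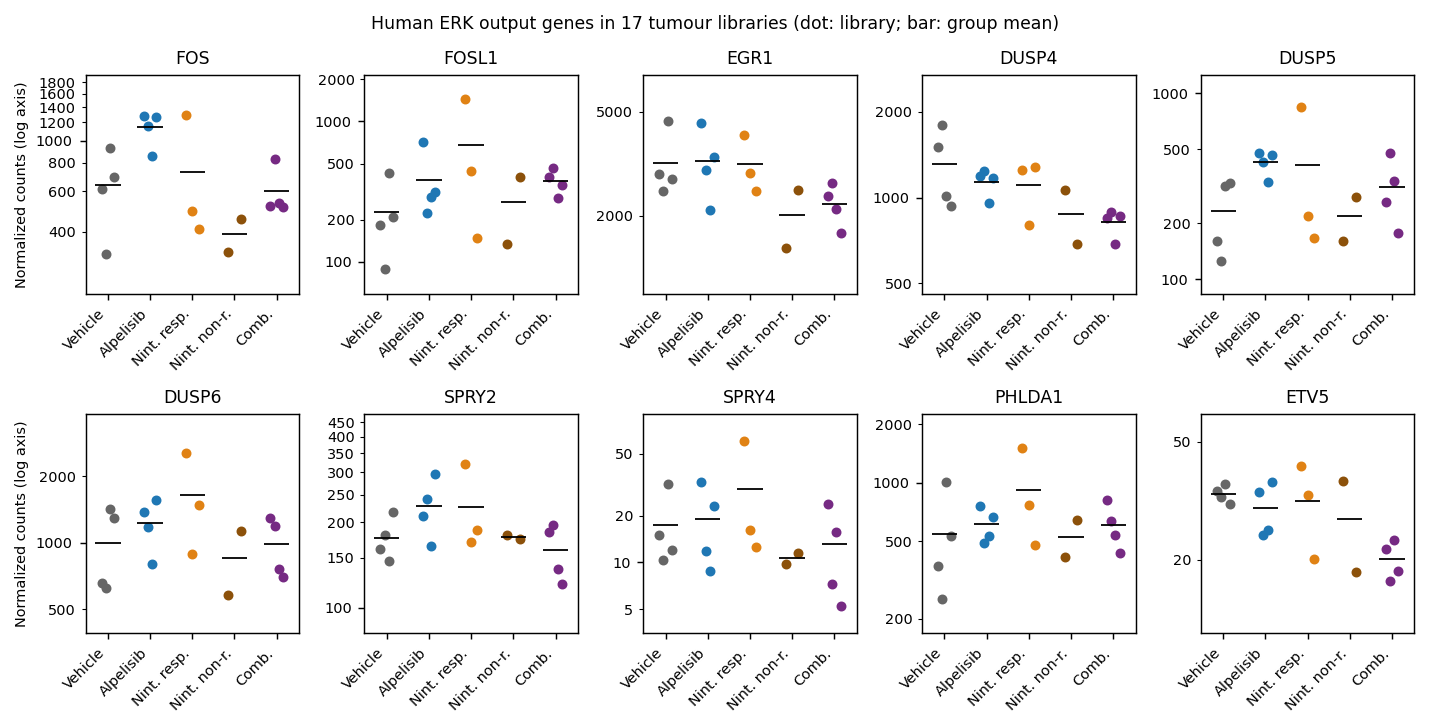
Normalized counts of the 10 genes (log y axis, a scale per gene) in the 5 labelled groups; each dot is 1 library and each bar the group mean. The single high orange dot among nintedanib responders, at 1435 for FOSL1 and 2550.3 for DUSP6, is nintedanib responder 1.

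The 3 DUSP genes encode dual-specificity phosphatases that dephosphorylate MAP kinases: DUSP5 and DUSP4 act in the nucleus and DUSP6 on cytoplasmic ERK. DUSP5 had 161, 125, 319 and 329 normalized counts in vehicle tumours and 476, 427, 331 and 467 in alpelisib tumours. The lowest alpelisib tumour lay just above the highest vehicle tumour, so the groups did not overlap. Its mean went from 233 ± 105 to 425 ± 66.3 (SD, n = 4 each), a log2 fold change of 0.97 ± 0.44 (interval 0.056 to 1.89, adjusted p = 0.253), and 0.71 to 1.18 with 1 library left out. DUSP5 was the only one of the 10 whose alpelisib and vehicle libraries did not overlap, against 11.8% of all tested genes. The summed epithelial markers did not overlap between these groups either, at 556171 to 871620 normalized counts in alpelisib and 276177 to 527565 in vehicle tumours, and their part in the FOS and DUSP5 values was not tested. The sum is mostly keratins: KRT14 had 1.14 ± 0.41 and KRT6A 1.16 ± 0.42 after alpelisib, whereas EPCAM had -0.85 ± 0.30, the smallest p of that list (adjusted p = 0.218), and CDH1 -0.31 ± 0.23. Under nintedanib DUSP5 stood at 838, 219.9 and 168 in responders and 160.2 and 278 in non-responders, and in combination tumours at 259, 479, 336 and 176. Neither group was set apart from vehicle, with changes of 0.32 ± 0.41 and 0.45 ± 0.44 (adjusted p = 0.76 and 0.602), and the first was -0.091 without nintedanib responder 1.

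DUSP4 had its lower values after the combination. It had 1506, 1805, 1009 and 931 in vehicle tumours and 847, 891, 687 and 861 in combination tumours, and every combination tumour lay below every vehicle tumour, by a narrow margin. The mean went from 1313 ± 415 to 822 ± 91.6 (SD, n = 4 each), a change of -0.63 ± 0.23 with an interval of -1.11 to -0.15 (adjusted p = 0.172). Leaving out each library in turn gave -0.78 to -0.46. Alpelisib tumours (957 to 1235) and nintedanib tumours (686 to 1281) overlapped the vehicle range, with changes of -0.16 ± 0.23 and -0.36 ± 0.22 (adjusted p = 0.701 and 0.619). The alpelisib value turned to 0.013 without Vehicle 2, where DUSP4 was highest.

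DUSP6, the phosphatase most specific for ERK, was split into a high and a low pair among vehicle tumours (658, 627, 1422 and 1295). Alpelisib tumours had 1371, 1183, 798 and 1561 and combination tumours 1295, 1189, 760.1 and 702, both overlapping that span. Nintedanib responders had 2550.3, 887 and 1482 and non-responders 583 and 1129. The changes against vehicle were 0.35 ± 0.35, 0.33 ± 0.34 and 0.028 ± 0.35 for alpelisib, nintedanib and the combination (adjusted p = 0.568, 0.702 and 0.973). The alpelisib value was 0.16 without Vehicle 2, and the nintedanib value 0.047 without nintedanib responder 1. With an interval of -0.71 to 0.77, the combination value leaves changes of either sign possible, and edgeR gave -0.044.

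SPRY2 and SPRY4 encode Sprouty proteins, which dampen signalling between receptor kinases and RAS. SPRY2 had 161, 179.9, 146 and 218 in vehicle, 209.7, 242, 165 and 296 in alpelisib and 185, 195, 137 and 122 in combination tumours, with overlap between each pair of groups. Nintedanib tumours had 322, 171, 188, 179.7 and 174, the responders first, and only responder 1 lay above all vehicle tumours. Its changes against vehicle were 0.35 ± 0.25 after alpelisib, 0.20 ± 0.23 after nintedanib and -0.15 ± 0.25 after the combination (adjusted p = 0.406, 0.733 and 0.765). SPRY4 was low, with 15, 10.3, 32.1 and 12 in vehicle, 32.7, 11.8, 8.75 and 23.1 in alpelisib and 23.9, 7.24, 15.8 and 5.23 in combination tumours. Nintedanib tumours had 60.2, 16.1, 12.5, 9.74 and 11.5, again with responder 1 first and highest. Its lowest value rests on 4 reads, in Combination 4 (exact 95% Poisson interval 1.09 to 10.2 reads, for counting error only). Its changes of 0.093 ± 0.55, 0.11 ± 0.53 and -0.47 ± 0.55 were smaller than their standard errors. Without Vehicle 3 and Combination 4, the libraries with the most ribosomal RNA, the combination value was 0.18.

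PHLDA1, a pleckstrin homology-like protein induced by ERK, had 374, 253, 1011 and 535 in vehicle, 760.1, 488, 536 and 669 in alpelisib and 814, 636, 541 and 437 in combination tumours. Nintedanib responders had 1504, 767 and 481 and non-responders 413 and 645. Vehicle 3 was above all 8 alpelisib and combination tumours and Vehicle 2 below all of them. The changes were 0.34 ± 0.37, 0.52 ± 0.35 and 0.31 ± 0.37 after alpelisib, nintedanib and the combination (adjusted p = 0.601, 0.621 and 0.681). They were 0.71, 0.88 and 0.68 without Vehicle 3 and 0.04, 0.22 and 0.01 without Vehicle 2.

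ETV5, an ETS family transcription factor of the PEA3 group, varied least of the 10 genes among vehicle tumours. Those 4 had 34.1, 32.7, 36.1 and 30.7 normalized counts, and combination tumours had 21.7, 16.9, 23.3 and 18.3. All 4 combination tumours lay below all 4 vehicle tumours. The mean went from 33.4 ± 2.28 to 20 ± 2.95 (SD, n = 4 each), a change of -0.72 ± 0.30 with an interval of -1.34 to -0.10 (adjusted p = 0.215). Leaving out each library in turn gave -0.79 to -0.64. ETV5 and DUSP4 were the 2 genes of 10 whose combination and vehicle libraries did not overlap, against 10.6% of all genes. Alpelisib tumours had 33.9, 24.3, 25.1 and 36.6 and nintedanib tumours 41.5, 33, 20.1, 36.8 and 18.1, with changes of -0.17 ± 0.30 and -0.22 ± 0.28 (adjusted p = 0.755 and 0.749). These levels rest on 11 to 57 reads per library. At the median read number, counting error alone was 18.9% of the level. The spread among vehicle tumours, an SD of 6.8% of the mean, was smaller than that and may understate the true spread. The summed epithelial markers also did not overlap between these groups, but in the opposite direction to these 2 genes. They had 675539 to 1223230 normalized counts in combination and 276177 to 527565 in vehicle tumours. In that list 8 of 10 genes had a positive change after the combination, KRT17 with 1.69 ± 0.38 (adjusted p = 0.0661), KRT14 with 1.45 ± 0.41, KRT5 with 1.03 ± 0.33 and KRT6A with 1.26 ± 0.42, whereas EPCAM had -0.75 ± 0.30 and CDH1 -0.53 ± 0.23. Their part in the result was not tested.

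No gene separated nintedanib from vehicle tumours, where 1.33% of all genes did. The direct comparisons of the drugs asked what each adds to the other. From alpelisib to the combination, 9 of the 10 genes had a negative change, with a median of -0.51 against -0.0017 for all genes. None passed (all genes 0%), and 1 reached an unadjusted p under 0.05 (all genes 4.46%). That gene was FOS, at -0.94 ± 0.34 (interval -1.65 to -0.23, adjusted p = 0.943): the highest combination tumour, at 835, lay below the lowest alpelisib tumour, at 858. DUSP4 (-0.47 ± 0.23) and ETV5 also had no overlap between these groups, ETV5 with 16.9 to 23.3 against 24.3 to 36.6. Thus 3 of the 10 genes were separated, all lower, whereas 2.41% of all tested genes were separated in either direction. SPRY2 had -0.51 ± 0.25 with overlap (interval -1.02 to 0.0061). With 1 library left out, the count at an unadjusted p under 0.05 ran from 1 to 4 of the 10, 4 without Vehicle 3 or Alpelisib 3, while the share of all genes ran from 1.74 to 10.4%. DESeq2 and the fit of only the compared groups gave 3.

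From nintedanib to the combination 7 of the 10 genes had a negative change, with a median of -0.25 (all genes 0.0095). With 1 library left out that median ran from -0.39 to -0.04, lowest without nintedanib non-responder 1 and nearest to 0 without nintedanib responder 1. None passed (all genes 0%), none reached an unadjusted p under 0.05 (all genes 3.83%), and in none were the groups separated (all genes 1.22%). The smallest p-values belonged to ETV5 (-0.49 ± 0.28), SPRY2 (-0.35 ± 0.23) and DUSP4 (-0.27 ± 0.22), each with an adjusted p of 0.988.

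Departure from additivity compares the change under both drugs with the sum of the 2 single changes on the log2 scale. It was negative for all 10 genes, with a median of -0.66 against -0.05 for all genes, of which 46.1% were positive. No single gene passed (all genes 0%) and 0 reached an unadjusted p under 0.05 (all genes 6.85%), against 1 by DESeq2 and 0 by edgeR and voom. SPRY2 came closest at -0.71 ± 0.34 (adjusted p = 0.662), followed by FOS at -0.75 ± 0.47 and DUSP5 at -0.84 ± 0.60. The members share the same 17 libraries, so their signs are not independent. With 1 library left out the median ran from -0.88 to -0.25, lowest without Vehicle 3 and nearest to 0 without nintedanib responder 1, and 0 to 1 genes were positive.

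Among the nintedanib tumours, all 10 genes had a higher mean log2 level in the 3 responders than in the 2 non-responders, with a median of 0.67 against -0.032 for all genes. None passed (all genes 0%), and 0 reached an unadjusted p under 0.05 (all genes 1.63%), against 2 by DESeq2 and 0 by edgeR and voom. EGR1 and DUSP6 had the smallest p-values, with 0.66 ± 0.34 and 0.88 ± 0.46, then FOS with 0.73 ± 0.44 (adjusted p = 0.999 for each). With 1 library left out the median ran from 0.23 to 0.98, lowest without nintedanib responder 1, where 8 genes were higher, and highest without nintedanib non-responder 2. The count at an unadjusted p under 0.05 then ran from 0 to 4 of the 10, and the share of all genes from 1.01 to 3.33%.

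Nintedanib responder 1 had the highest level of the 17 libraries for 8 of the 10 genes, whereas it was the highest library for 8.02% of all tested genes (Vehicle 3 for 24.0%). The exceptions were EGR1, highest in Vehicle 3 at 4634, and DUSP4, highest in Vehicle 2 at 1805. FOSL1 in this tumour was 1435 against 441 in the next nintedanib tumour, DUSP5 838 against 278, and SPRY4 60.2 against 16.1. Averaged over the 10 genes after each was standardised, it stood 1.83 SD above the mean of the libraries, followed by Alpelisib 1 (0.96), Alpelisib 4 (0.83) and Vehicle 3 (0.64). The lowest were Combination 4 (-1.0) and nintedanib non-responder 1 (-0.80). In nintedanib responder 1 the ribosomal RNA share of mouse reads was 27.7%. Its summed heat-shock genes, which respond to stress and handling, were 80157 normalized counts, inside the range of the other 4 nintedanib tumours (71319.7 to 87600.3). Whether RNA quality, stress or handling had a part in its high levels was not tested.

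**Figure D3:**
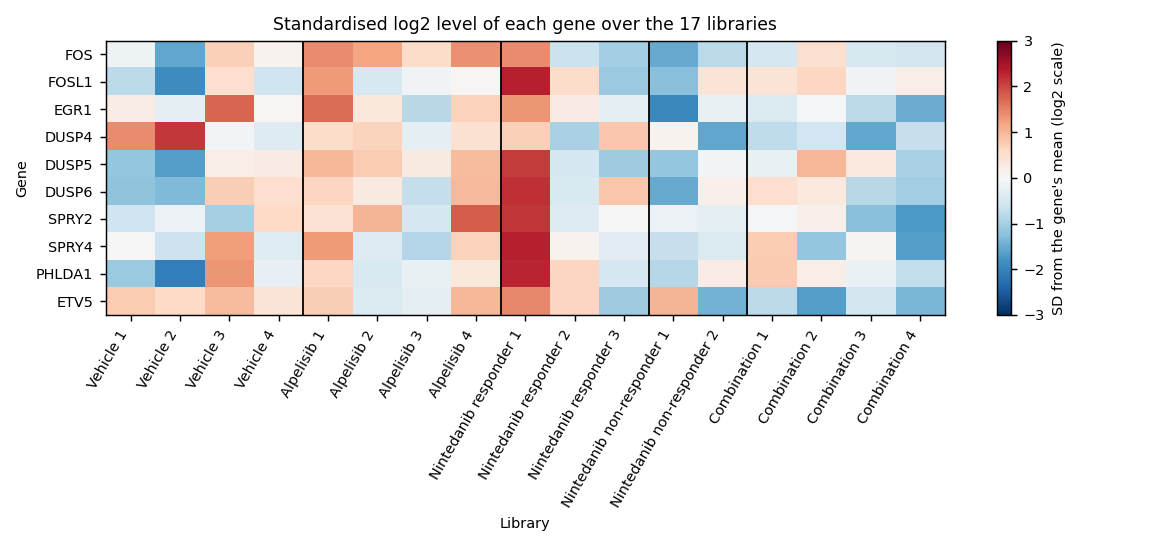
Level of each gene (rows) in each library (columns), as SD from that gene's mean over the 17 libraries on the log2 scale; vertical lines part the 5 groups. Nintedanib responder 1 is above the mean in all 10 rows, and DUSP4 and ETV5 are below it in all 4 combination columns.

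The genes did not form 1 block. Over the 17 libraries, which differ in treatment and depth, each gene's log2 level was compared with the mean standardised level of the other 9 as a description. SPRY4 (r = 0.82), EGR1 (0.81) and DUSP6 (0.80) followed the rest most closely, ETV5 did so weakly (0.42), and DUSP4 hardly at all (0.081). FOSL1 and PHLDA1 were the closest pair (r = 0.90), then FOS and DUSP5 (r = 0.87), while DUSP4 ran against FOSL1 (r = -0.35) and PHLDA1 (r = -0.34). Outside the set, the 6 genes most like the mean of the 10 over these libraries were HBEGF, an EGF receptor ligand (r = 0.927), the hyaluronan synthase HAS3 (0.919), TM4SF19 (0.891), the RAS-related GTPase gene GEM (0.878), the protease inhibitor SERPINB1 (0.876) and TOB1 (0.863). HBEGF was 3214 normalized counts in nintedanib responder 1, against a median of 513 over the 17 libraries. That library was the highest for all 6 genes, and also for FOSL1, PHLDA1, FOS and DUSP5, so these Pearson values may lean on it. Spearman correlations of the 6 genes were lower, from 0.75 (TOB1) to 0.90 (HBEGF).

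No gene of the wider pathway passed either. Of 18 other ERK output genes tested, 0 passed against vehicle in any of the 3 treatments, and their medians were 0.40 after alpelisib, 0.31 after nintedanib and 0.24 after the combination, with 13, 12 and 12 positive. ETV4, the PEA3 relative of ETV5, was 67.1 to 102 in vehicle and 97.1 to 161 in alpelisib tumours (0.72 ± 0.25, adjusted p = 0.215), and its change after the combination was 0.47 ± 0.25 (adjusted p = 0.328), opposite in sign to that of ETV5. DUSP9, another MAP kinase phosphatase, had 1.18 ± 0.46 after alpelisib, IER3 0.84 ± 0.40 and the ERK pathway inhibitor SPRED1 -0.50 ± 0.21. The urokinase receptor gene PLAUR had 0.84 ± 0.39 after nintedanib and 0.96 ± 0.41 after the combination, DUSP2 0.82 ± 0.36 and DUSP7 0.65 ± 0.33 after nintedanib, and MAFF 0.75 ± 0.35 after the combination.

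Of 24 other immediate early genes 0 passed as well (medians 0.25, 0.13 and 0.10 for alpelisib, nintedanib and the combination). DUSP1, a phosphatase induced by many stresses, was 222 to 448 in vehicle and 529 to 921 in alpelisib tumours with no overlap (1.06 ± 0.35, adjusted p = 0.21). CYR61, a matrix protein gene, had 0.84 ± 0.31 after alpelisib, 0.48 ± 0.29 after nintedanib and 0.88 ± 0.31 after the combination. KLF4 (0.80 ± 0.33) and the orphan receptor gene NR4A1 (0.85 ± 0.37) were next after alpelisib, and EGR3 (-0.74 ± 0.32), EGR2 (-0.53 ± 0.26) and JUND (0.58 ± 0.29) after the combination. After nintedanib EGR2 (-0.35 ± 0.24), FOSL2 (-0.40 ± 0.29) and IER5 (0.31 ± 0.25) followed CYR61.

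The 25 genes of the cascade itself had negative medians, -0.18 after alpelisib, -0.19 after nintedanib and -0.12 after the combination, and 0 passed. HRAS had 1.08 ± 0.39 after alpelisib (adjusted p = 0.22). Also named by the rule were the exchange factor SOS2 (-0.55 ± 0.25) and the RAS inactivator RASA1 (-0.51 ± 0.23). After nintedanib HRAS had 0.73 ± 0.37, the adaptor SHC1 0.44 ± 0.23 and SOS1 -0.46 ± 0.26. After the combination MAPK3, which encodes ERK1, had 0.71 ± 0.26, HRAS 1.05 ± 0.39, the MEK gene MAP2K2 0.79 ± 0.29 and the scaffold KSR1 -0.87 ± 0.36 (adjusted p = 0.173, 0.174, 0.174 and 0.215).

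Heat-shock genes, set beside the immediate early genes because both respond to tissue handling, had medians of 0.039, 0.071 and 0.16, with 0 of 11 passing. Their summed level was 71239 to 81799 in vehicle, 69296 to 93214 in alpelisib and 73965 to 104190 in combination tumours, and these ranges overlap. Summed host cell markers in the human table overlapped likewise (2789 to 7402 in vehicle, 2938 to 5606 in alpelisib and 4190.0 to 8755 in combination tumours). Of the 6 host markers tested 0 passed, with 2 positive after alpelisib and 5 after the combination. CD68, a macrophage gene, came closest with 1.22 ± 0.33 after the combination (limma adjusted p = 0.103), and had 1.11 ± 0.33 after alpelisib (adjusted p = 0.209). Unlike the sum, CD68 did not overlap with vehicle. It was 226 to 525 in vehicle, 582 to 965 in alpelisib and 571 to 1032 in combination tumours. The heat-shock gene HSPB1 had 0.87 ± 0.30 after the combination (adjusted p = 0.161). HSPE1 had 0.64 ± 0.22 after alpelisib and 0.43 ± 0.21 after nintedanib (limma adjusted p = 0.21 and 0.619). It was 2022 to 2500 in vehicle, 2581 to 4564 in alpelisib and 2505 to 3548 in nintedanib tumours, both apart from vehicle. After alpelisib 5 of the 11 heat-shock genes were negative, among them DNAJA1 (-0.41 ± 0.19) and HSPH1 (-0.47 ± 0.24).

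**Figure D4:**
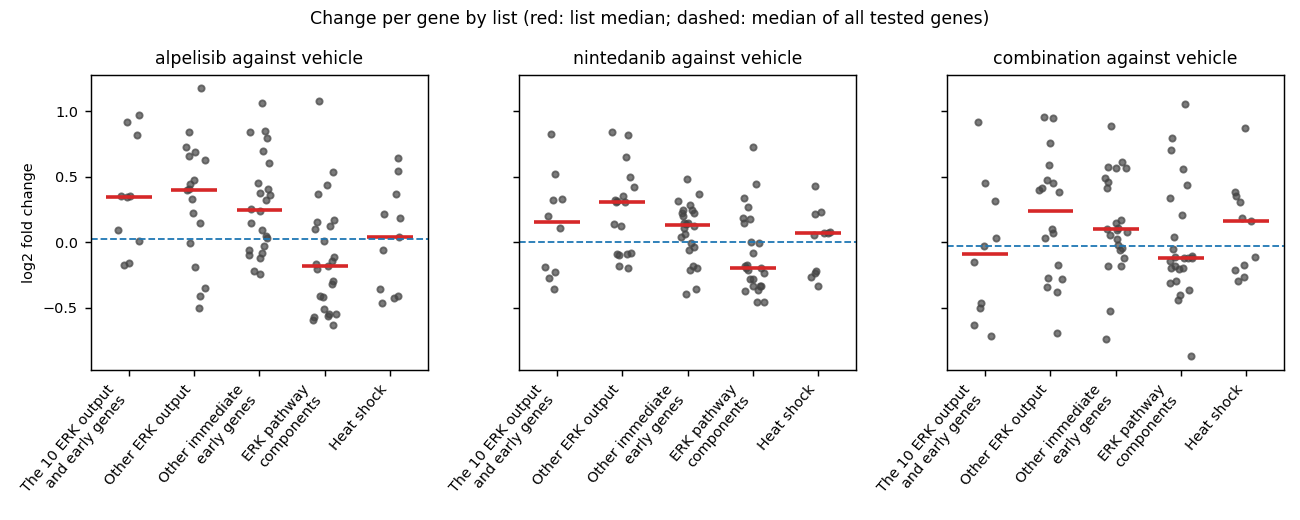
Log2 fold change against vehicle (y axis) of each tested gene in 5 lists, for the 3 treatments; red bars are list medians and the dashed line is the median of all tested genes. The 10 genes lie mostly above the dashed line after alpelisib (median 0.35) and to both sides of it after the combination (median -0.09).

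Because reads were mapped to the human and the mouse genome separately, conserved sequences can be counted in both tables, and the mouse genes of the same names were set beside the human ones. For 8 of the 10 human genes, human reads outnumbered mouse reads in all 17 libraries, by at least 52-fold for FOSL1 and 9.65-fold for EGR1 but by as little as 2.5-fold for FOS, 1.35-fold for DUSP6 and 1.34-fold for SPRY2. SPRY4 had more human reads in 3 libraries and ETV5 in 0. In the remaining libraries mouse reads outnumbered or equalled human reads of these genes. How many reads of each gene crossed between the tables was not tested.

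The mouse table was scaled separately, and its values are given without a test. Of 11831 mouse genes with a mean of at least 10, 7.21% did not overlap between alpelisib and vehicle, 2.45% between nintedanib and vehicle and 9.64% between the combination and vehicle. Of the 10 mouse counterparts, 2 were separate after alpelisib (Fos and Spry2, both higher), 1 after nintedanib (Spry4, lower) and 3 after the combination (Spry4 and Egr1 lower, Fosl1 higher). Mouse Spry4 was 71.1 to 106 normalized counts in vehicle, 15.6 to 72.6 in alpelisib, 8.47 to 24.2 in nintedanib and 8.73 to 28.8 in combination tumours. All 9 tumours given nintedanib, alone or with alpelisib, therefore lay below all 4 vehicle tumours in the host copy, whereas human SPRY4 overlapped between vehicle (10.3 to 32.1) and nintedanib (9.74 to 60.2). Mouse Etv5 was 80.4 to 138 in vehicle and 99.7 to 159.9 in combination tumours, with overlap, where human ETV5 was lower in each combination tumour. Mouse Fos was 88.3 to 204 in vehicle and 325 to 358 in alpelisib tumours with no overlap, the same direction as in the human reads, and it was 142 to 329.9 in combination tumours. Mouse Egr1 was 159 to 229.6 in vehicle and 78.5 to 149.9 in combination tumours, again with no overlap. Mouse Fosl1, whose mean is under 10 and which is not among those mouse genes, was 0.635 to 2.76 in vehicle and 2.79 to 6.23 in combination tumours. Mouse Spry2 was 67.5 to 86.2 in vehicle and 88.4 to 143 in alpelisib tumours, also separate, while Dusp6 overlapped between vehicle (445 to 677) and each treatment.

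**Figure D5:**
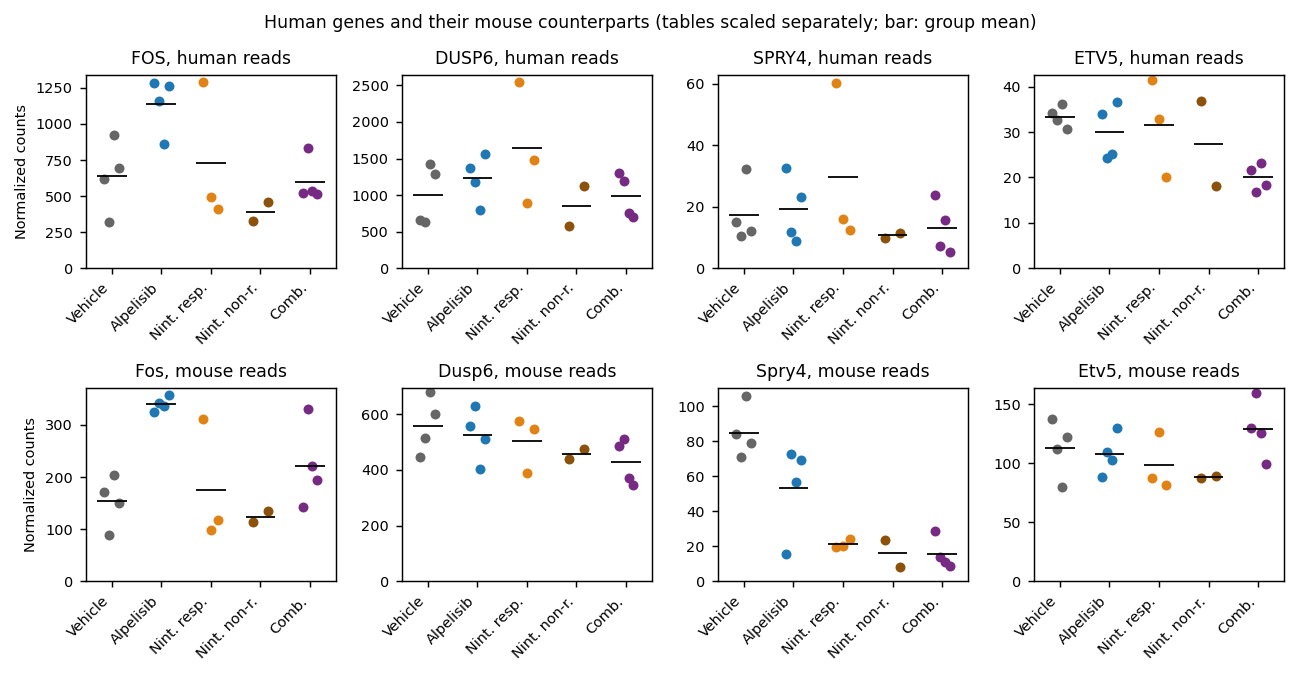
Normalized counts (y axis from 0, a scale per panel) of 4 human genes (top) and their mouse counterparts (bottom) in the 5 groups; each dot is 1 library and each bar the group mean. Mouse Spry4 lies between 8.47 and 28.8 in every tumour given nintedanib, while human SPRY4 does not separate these groups.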

How the data were processed

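The 17 libraries were made from polyA RNA of xenograft tumours with a TruSeq kit, per the labels' protocols. Bowtie, TopHat and DESeq2 are named with hg19 and mm10 and without versions, per the submitters' processing notes, and the 2 genomes were mapped separately, per the series text. The counter, annotation and strand setting are not stated there, so a gene and an antisense partner cannot be told apart. The deposited values are a signal per gene, reads that the authors divided by 1 factor per library. All human values (100%) came within 0.001 of whole reads, and DESeq2 size factors of those reads differed from the deposited scaling by at most 9.09e-08%. Mouse values lay up to 0.00113 from whole reads and served for levels and read ratios only.

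The log2 of each human value plus 1 was fitted with limma-trend (limma 3.58.1, R 4.3.3), as 5 group means over 17 libraries, the nintedanib mean weighting its 5 libraries equally. P-values were Benjamini-Hochberg adjusted over 14533 genes. The script was tested on simulated data. The 10 genes and the lists were chosen with earlier results of these data known. Named besides the 10 were the 4 genes per list with the smallest p against vehicle (1 of them is not reported here) and the 6 genes with the highest Pearson correlation; in the other contrasts, the 3 of the 10 with the smallest p. EPCAM after the combination, CDH1 and the host markers given by level were chosen after their values were seen. Alternatives were TMM scaling, pseudocounts of 0.5 and 5, no filter or a mean of 50, edgeR 4.0.16, voom and DESeq2 1.42.0 on the recovered reads, the replicate number as a block, only the compared groups, and each library left out. No 2 libraries of a group were copies (chi-square per gene at least 18.61 over 22 pairs).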

Additional observations from a re-analysis of the deposited data

Results flagged for a closer look

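Within-group spread was screened over the 10 genes in 4 treatment groups, 40 sets of 4 or 5 libraries. The screen sought a highest or lowest library whose gap to its neighbour took up most of the range (Dixon's 95% criterion). Chance meets this criterion in about 1 of 20 sets if values are normally distributed, which was not tested here. It was applied to normalized counts, not to their log2, and the log2 scale was not screened. The gaps found were 0.76 to 0.95 of the range. Of the 6 libraries found, 5 are nintedanib responder 1, each time as the highest of 5: FOS 1294 (next 492), FOSL1 1435 (next 441), DUSP5 838 (next 278), SPRY2 322 (next 188) and SPRY4 60.2 (next 16.1) normalized counts. These 5 genes share 1 library, so they are not separate observations. The sixth is FOS in Combination 2, at 835 against 532 in the next combination tumour.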

How the results depend on the processing

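With the alternatives listed above, 0 of the 10 genes passed in any contrast; the lowest adjusted p was 0.0879, by DESeq2 for combination against vehicle. Of 42 changes followed, 690 of 714 values with a library left out and 446 of 455 under other settings kept their direction. Leaving out a library outside the compared groups cannot move a change, nor can the expression filter or a fit of only the compared groups. Those values kept their direction by construction, so both counts overstate how steady the changes are. The cause was not tested for those that turned. For alpelisib, EGR1 was -0.022 with TMM scaling, -0.026 by edgeR and -0.042 by voom. For the combination, DUSP6 was -0.044 by edgeR and -0.018 by DESeq2. With the replicate number as a block, SPRY4 after nintedanib was -0.019, and no call among the 10 genes changed. Replicate numbers showed no sign of pairing the samples. Libraries sharing a number across groups had a correlation over 0.1 in 7 of 29 pairs (other pairs 33 of 85). Only 1 library of 17 correlated best with its own number. With so few libraries per group these correlations cannot exclude a pairing. Without Vehicle 3 and Combination 4, chosen after the data were seen, FOS was 0.018 after nintedanib and 0.25 after the combination, and SPRY4 0.18 after the combination. Leaving out 1 library at a time, ranges that crossed 0 were, after alpelisib, EGR1 -0.17 to 0.20, DUSP4 -0.30 to 0.013 and SPRY4 -0.21 to 0.42; after nintedanib, FOS -0.52 to 0.018, DUSP5 -0.091 to 0.52 and SPRY4 -0.33 to 0.44; and after the combination, FOS -0.32 to 0.18 and DUSP6 -0.16 to 0.23. A lone remaining non-responder is assumed to vary like the other groups. Over all genes, the count passing for combination against vehicle was 52 by limma, 40 by edgeR, 48 by voom, 496 by DESeq2, 29 with the replicate block, 34 with a minimum mean of 50, 7 with only the compared groups, 0 with no filter, and 0 to 97 with a library left out. For alpelisib DESeq2 called 117 and for nintedanib 8 (leaving 13243 genes without an adjusted p), and for combination against nintedanib 1, against 0 by limma, edgeR and voom. SPRY4 and ETV5 are limited by depth: at the median read number, counting error alone was 23.6% and 18.9% of the level.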
